A study of Homo sapiens with 4 samples.

Results

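SND1, FAF1, FNDC3B, TRIO, TLE4 and KANSL1 are 6 of the 60708 genes listed in a count table of newly made RNA. They were chosen by their counts: each is a long protein-coding gene among those with the most counts in every library, found in the table by the stable gene identifier that GENCODE pairs with its symbol. All 6 passed the filter on low counts, as did 23321 genes in all and 15329 protein-coding genes. By mean normalized CPM (counts per 1000000 counts of a library, with library sizes corrected by TMM), they held ranks 4 and 6 to 10 among all genes. No numeric limit was set for the choice, and the last gene inside it, KANSL1, had 1006 CPM against 974 CPM for the next gene, PRRC2B. Ranks and levels chose these genes, so they are given below as a description with no test.

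The data are 4 TT-seq libraries, a method that labels RNA with 4-thiouridine, here for 20 min, and sequences the labeled fragments. All came from HEK293, a human embryonic kidney cell line, with an RPB1 degron, which lets auxin trigger destruction of the endogenous largest subunit of Pol II. Plasmids for RPB1 with 52 repeats of the C-terminal domain (CTD), the tail of RPB1 whose phosphorylation is set through transcription, were transfected transiently, auxin was added 48 h later, and it was kept for a further 48 h. There were 2 libraries with the wild-type CTD (52X WT) and 2 with T4A, alanine for the threonine at position 4, in every repeat (52X T4A), so both groups carried the degron, the plasmid and the auxin. The libraries held 39249066 and 45605027 counts for 52X WT replicates 1 and 2, and 33853507 and 33188536 counts for 52X T4A replicates 1 and 2. Over the tested genes, Pearson's r of log2 CPM was 0.991 for the pair of WT libraries and 0.979 for the T4A pair. Nothing in the labels says that replicates came from separate cultures, so p-values measure the spread between these samples, which may be technical. The HEK293 markers PAX2, SALL1, CDH2, VIM, KRT8 and KRT18 had mean levels from 2.41 to 302 CPM, and PTPRC, CD3E, ALB and HBB, markers of other cell types, from 0.0149 to 0.931 CPM. Divided by gene length in kb, the sets overlapped, with PAX2 at 0.0255 CPM per kb, below ALB at 0.0382. The other HEK293 markers had from 0.593 (SALL1) to 5.29 (KRT18) CPM per kb. POLR2A, the gene of RPB1, had 377312 and 384353 counts in WT and 251502 and 279478 counts in T4A, and these counts do not separate plasmid from endogenous RNA.

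In TT-seq, labeled RNA is sampled along the whole gene, introns included, because most introns are sequenced before the RNA is fully spliced and mature. A long gene that is transcribed as often as a short one therefore carries more polymerases at any time and gives more labeled fragments. Counts per gene rank genes by the total amount of RNA made, and counts per kb come closer to how often a stretch of the gene is transcribed.

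The 6 genes encode unrelated proteins. SND1 is a nuclease-domain and Tudor-domain protein that acts as a transcriptional coactivator and is found in the RNA-induced silencing complex. FAF1 is a UBX-domain protein that binds the ATPase VCP and the death receptor FAS. FNDC3B is a fibronectin type III domain protein of the endoplasmic reticulum membrane, and TRIO is a guanine nucleotide exchange factor for the small GTPases RAC1, RHOG and RHOA. TLE4 is a corepressor of the Groucho family. KANSL1 is the scaffold of the NSL complex, which holds the histone acetyltransferase KAT8.

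The genes lie on 6 different chromosomes. In the GRCh38 coordinates of the table, SND1 spans chr7:127652194-128092609 on the plus strand, FAF1 chr1:50437028-50960267 on the minus strand and FNDC3B chr3:172039578-172401669 on the plus strand. TRIO spans chr5:14143342-14532128 and TLE4 chr9:79571773-79726882, both on the plus strand, and KANSL1 spans chr17:46029916-46225389 on the minus strand. The listed length equalled this span for every gene of the table, so introns were part of each gene. Exons of all annotated transcripts (GENCODE release for the lifted GRCh37 annotation, joined by identifier) covered 1.44% of FAF1, 1.47% of SND1, 3.68% of FNDC3B, 5.12% of TRIO, 5.34% of TLE4 and 12.2% of KANSL1. Nearly all of the counted length of FAF1 and SND1 was thus intron.

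The sequences that end at the first base of transcription are shown for the 4 genes whose RefSeq start coincided with the 5′ end in the count table, since this is where the counted span begins. Each is the 100 bases upstream of the start, read 5′ to 3′ on the gene's strand from RefSeq GRCh38.p14, with GC boxes (GGGCGG or its reverse complement CCGCCC) in capitals. The windows are chr7:127652094-127652193 on the plus strand for SND1, chr1:50960268-50960367 on the minus strand for FAF1, chr3:172039478-172039577 on the plus strand for FNDC3B and chr5:14143242-14143341 on the plus strand for TRIO.
SND1: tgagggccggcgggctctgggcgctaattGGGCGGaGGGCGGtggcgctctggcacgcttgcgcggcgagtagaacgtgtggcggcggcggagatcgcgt
FAF1: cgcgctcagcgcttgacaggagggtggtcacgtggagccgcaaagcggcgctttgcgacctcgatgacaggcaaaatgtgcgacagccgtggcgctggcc
FNDC3B: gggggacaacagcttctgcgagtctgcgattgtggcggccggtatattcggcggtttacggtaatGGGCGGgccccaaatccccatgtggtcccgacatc
TRIO: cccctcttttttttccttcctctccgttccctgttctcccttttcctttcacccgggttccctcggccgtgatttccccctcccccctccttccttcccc
Over the full 250 bases before the start, SND1, TRIO and TLE4 each held 3 GC boxes, FNDC3B held 1, and FAF1 and KANSL1 held 0. A GC box, on either strand, was in 59.2% of the 17675 promoter windows of 12041 genes. A TATAAA motif was in FNDC3B alone of the 6, against 7.0% of all windows, and a CCAAT motif was in SND1 (2 matches) and TLE4 (1 match), against 32.6% of all windows. GC content ran from 52.4% in FNDC3B to 74.8% in KANSL1, around a median of 63.6% over all windows. These matches describe letters only. The RefSeq starts of TLE4 and KANSL1 lay 192 and 630 bases inside the listed gene, so their windows are not shown.

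SND1, the coactivator, had 68427 and 79545 counts in WT replicates 1 and 2, and 65900 and 60289 counts in T4A replicates 1 and 2. After normalization these were 1746 and 1803 CPM in WT and 1961 and 1742 CPM in T4A. It ranked 4 in every library, behind POLR2A and the mitochondrial rRNA genes MT-RNR2 and MT-RNR1, and lay above the other 5 genes in each. The T4A libraries lay on both sides of the WT libraries.

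FAF1, the VCP-binding protein gene, had 46217 and 56683 counts in WT and 40484 and 36478 counts in T4A. Its normalized levels were 1179 and 1285 CPM in WT and 1205 and 1054 CPM in T4A, so the groups overlapped. FNDC3B had 40557 and 48493 counts in WT and 40505 and 35483 counts in T4A. Its levels were 1035 and 1099 CPM in WT and 1205 and 1025 CPM in T4A, and again T4A replicates lay above and below both WT replicates.

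TRIO, the exchange factor gene, had 43136 and 48866 counts in WT and 35248 and 33616 counts in T4A. Its levels were 1101 and 1107 CPM in WT and 1049 and 971 CPM in T4A, and it was the only one of the 6 genes whose groups did not overlap. For TLE4, the corepressor gene, 37975 and 44827 counts were listed in WT and 37685 and 33882 counts in T4A. They gave 969 and 1016 CPM in WT and 1121 and 979 CPM in T4A. KANSL1 had 39654 and 46161 counts in WT and 34979 and 32054 counts in T4A. Its 1012 and 1046 CPM in WT and 1041 and 926 CPM in T4A overlapped as well.

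**Figure D1:**
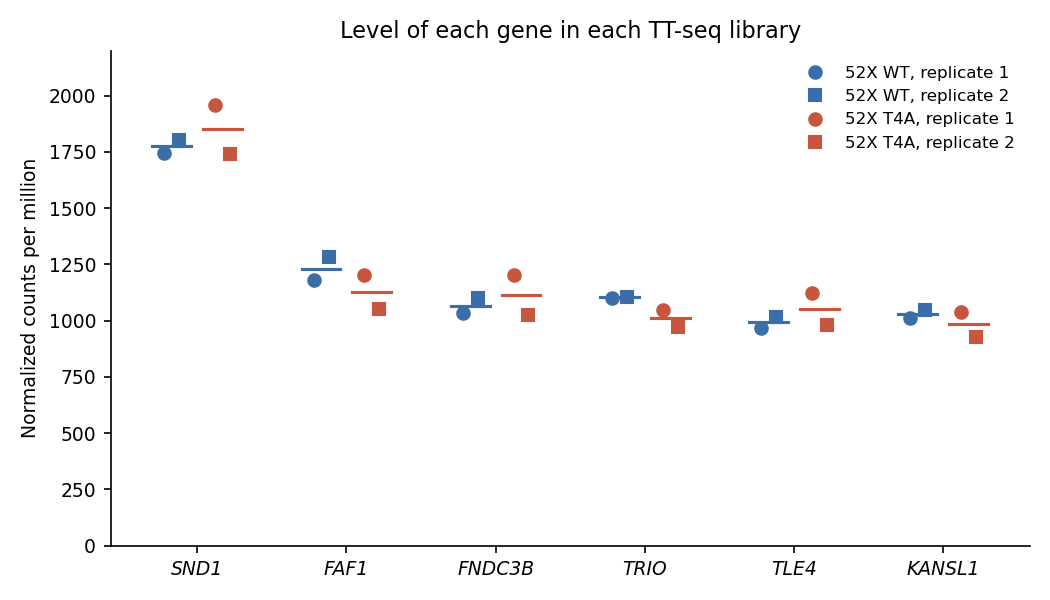
Normalized CPM (vertical axis, from 0) of each gene in each library, with blue for 52X WT, red for 52X T4A, circles for replicate 1, squares for replicate 2 and horizontal lines for the mean of 2 libraries. SND1 sits between 1742 and 1961 CPM, above the other 5 genes in every library, and only TRIO has both T4A libraries below both WT libraries.

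As group means, SND1 stood at 1774 ± 39.8 CPM (SD, n = 2) in WT and 1851 ± 155 CPM (SD, n = 2) in T4A. FAF1 stood at 1232 ± 74.3 and 1129 ± 107 CPM, and FNDC3B at 1067 ± 45.2 and 1115 ± 127 CPM, in the same order. TRIO had 1104 ± 4.63 CPM in WT and 1010 ± 54.9 CPM in T4A. TLE4 had 993 ± 33.04 and 1050 ± 101 CPM, and KANSL1 1029 ± 24.1 and 984 ± 81.2 CPM. In each of the 6 genes the T4A libraries were further apart than the WT libraries, by 8.001% to 17.6% of the lower value in T4A against 0.595% to 8.91% in WT, with T4A replicate 1 the higher of its pair each time. Counting error was smaller than most of these gaps. With 2 counts taken as 1 fragment, since 83.1% to 86.5% of genes with 1 to 10 counts had an even count, the 95% Poisson interval of a member in a library had a half-width of 0.983% to 1.55%. PCR copies are not independent molecules, and this interval covers counting error only.

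Together the 6 genes took 0.703% and 0.712% of the counts in WT and 0.753% and 0.698% in T4A. SND1 alone took between 0.174% and 0.195%. Below SND1 the levels ran close together. Ordered by the mean over the 4 libraries they were FAF1, FNDC3B, TRIO, TLE4 and KANSL1, and the ranges of every neighboring pair in this order overlapped. The order of these 5 genes was the same in both WT libraries (FAF1, TRIO, FNDC3B, KANSL1, TLE4) and differed from it in both T4A libraries, where TLE4 was above TRIO and KANSL1.

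Dividing by length reordered the genes. The listed lengths were 523 kb for FAF1, 440 kb for SND1, 389 kb for TRIO, 362 kb for FNDC3B, 195 kb for KANSL1 and 155 kb for TLE4, against a median of 37.8 kb over the tested protein-coding genes. TLE4, the lowest but KANSL1 in CPM, was the highest in CPM per kb, at 6.40 ± 0.213 (SD, n = 2) in WT and 6.77 ± 0.650 (SD, n = 2) in T4A. KANSL1 followed at 5.26 ± 0.123 in WT and 5.03 ± 0.415 in T4A, and SND1 at 4.03 ± 0.0905 in WT and 4.20 ± 0.352 in T4A.

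The 3 remaining genes were lower per kb. FNDC3B had 2.95 ± 0.125 CPM per kb in WT and 3.08 ± 0.352 in T4A, TRIO 2.84 ± 0.0119 in WT and 2.60 ± 0.141 in T4A, and FAF1 2.35 ± 0.142 in WT and 2.16 ± 0.204 in T4A. The order TLE4, KANSL1, SND1, FNDC3B, TRIO, FAF1 held in each of the 4 libraries. Only the ranges of FNDC3B (2.83 to 3.33) and TRIO (2.50 to 2.85) overlapped between neighbors in this order. FAF1, second of the 6 by counts, was thus last by counts per length, and its length was 3.37 times that of TLE4.

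Per kb the 6 genes no longer stood at the top of the table. Among 15329 tested protein-coding genes they ranked 2 to 7 by CPM, and by CPM per kb TLE4 ranked 606, KANSL1 866, SND1 1226, FNDC3B 1900, TRIO 2173 and FAF1 2797. The corresponding percentiles were 96.0, 94.4, 92.0, 87.6, 85.8 and 81.8, so all 6 were still well above the coding median of 0.629 CPM per kb. None was among the 100 nuclear protein-coding genes with the highest CPM per kb, all of which were shorter than 100 kb and lay at 23.8 CPM per kb or higher. The 20 most counted nuclear protein-coding genes had a median length of 365 kb, and 16 of them were at least 100 kb long. The 20 with the highest CPM per kb had a median length of 1.47 kb.

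**Figure D2:**
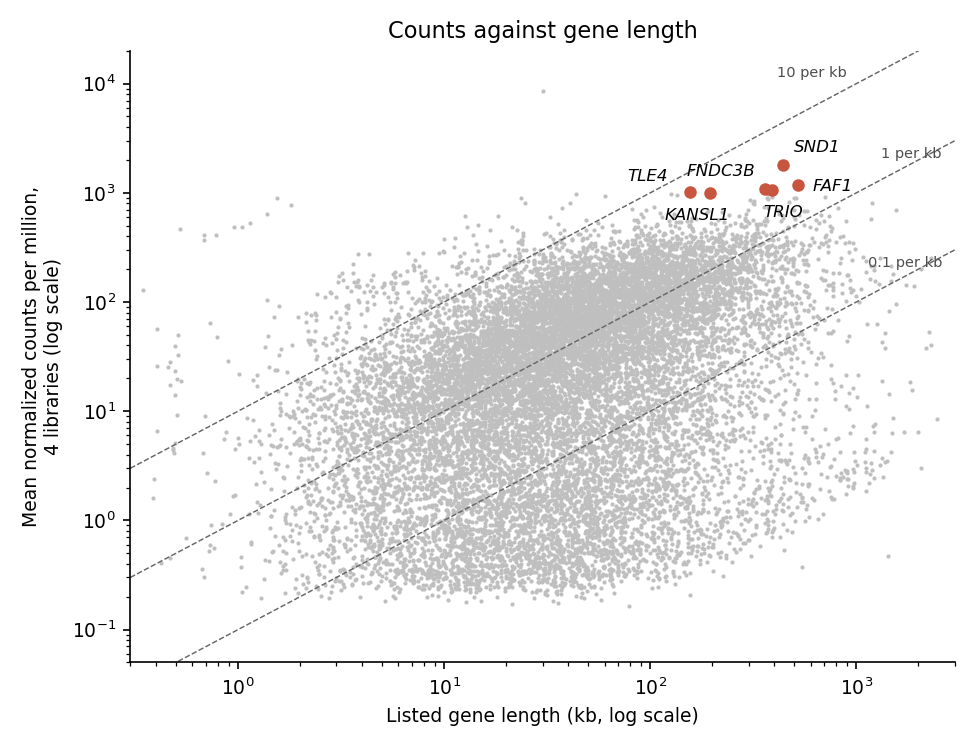
Mean normalized CPM over the 4 libraries (vertical, log scale) against listed gene length in kb (horizontal, log scale) for tested protein-coding genes in grey and the 6 genes in red, with dashed lines of equal CPM per kb. The 6 genes lie along the upper right edge, between 155 and 523 kb, between the lines of 1 and 10 CPM per kb.

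Set against genes of like size, the 6 were at or near the top in counts per length. This follows largely from their choice by counts, since genes of like length rank similarly by counts and by counts per kb. These ranks therefore mostly restate the ranks by counts and are given as a description. Of the tested protein-coding genes with a length of 0.8 to 1.25 times its own, 0 of 368 exceeded SND1 per kb and 0 of 933 exceeded KANSL1. FAF1 was exceeded by 1 of 273, FNDC3B by 1 of 457, TRIO by 2 of 418 and TLE4 by 2 of 1189. The gene above FAF1 and the gene above FNDC3B was SND1, and those above TRIO were SND1 and FNDC3B. The medians of these genes of like length were 0.120 CPM per kb for FAF1, 0.143 for SND1, 0.182 for TRIO, 0.216 for FNDC3B, 0.427 for KANSL1 and 0.468 for TLE4. Among the 3488 tested protein-coding genes of at least 100 kb, TLE4 ranked 4, KANSL1 7, SND1 15, FNDC3B 58, TRIO 80 and FAF1 149 per kb. Among the 1455 of at least 200 kb, SND1 ranked 1, FNDC3B 3, TRIO 5 and FAF1 19.

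Level per length fell with length over all tested protein-coding genes. The filter on low counts admits a short gene only at a higher CPM per kb than a long gene needs. Length is also the divisor of CPM per kb, so part of the fall, and of the lower medians, may be built in. How large that part is was not tested. Spearman's correlation of length was 0.376 with CPM and -0.268 with CPM per kb across 15329 genes of the same libraries, which are not independent replicates. Median CPM per kb was 0.352 in genes of at least 100 kb and 0.209 in genes of at least 200 kb. The excess of each gene over the geometric mean of the tested protein-coding genes (15.3 CPM, 37.0 kb, 0.413 CPM per kb) therefore has a part from length and a part from level per length. SND1 was 118 times the mean gene in CPM, 11.9 times in length and 9.96 times in CPM per kb. On the log2 scale, length made up 51.9% of the excess for SND1, 53.4% for FNDC3B, 55.5% for TRIO and 61.0% for FAF1.

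TLE4 and KANSL1, the shortest of the genes, had the opposite split. The genes were chosen by counts, and those below SND1 were close in CPM. Among them a shorter gene therefore has a smaller part from length by construction. TLE4 was 66.7 times the mean gene in CPM, 4.19 times in length and 15.9 times in CPM per kb, so that length made up 34.1% of its log2 excess. KANSL1 was 65.8 times in CPM, 5.28 times in length and 12.5 times in CPM per kb, and length made up 39.8%. FAF1, at 77.2 times in CPM, was 14.1 times the mean in length and 5.46 times in CPM per kb.

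The neighbors of each gene give a level for its surroundings. They are the 5 nearest tested protein-coding genes on each side, whatever their strand and distance. Not all were close: those of TLE4 lay from 1242 to 3933 kb away, and those of TRIO up to 3671 kb away. Of the 60 neighbors, 55 were lower in CPM per kb than the gene they surround, and 34 were below the median of all tested protein-coding genes. The 6 genes exceeded from 81.8% (FAF1) to 96.0% (TLE4) of all tested protein-coding genes per kb. The share of lower neighbors was thus near that for tested protein-coding genes anywhere. The counts hold no measurement of DNA copy number, so gene copies and transcription per copy cannot be told apart. A gain that spans a region would add to its neighbors as well as to the gene itself, and the neighbors' values are given for that reason.

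Around SND1, all 10 neighbors were lower per kb, from 0.00695 for GRM8, a glutamate receptor gene, to 2.05 for RBM28, a nucleolar RNA-binding protein gene. The median neighbor was at 0.993 CPM per kb, and SND1 was 4.15 times that, with a range of 3.76 to 4.89 over the libraries. The ratio was 6.97 with 10 neighbors on each side and 10.1 over all tested protein-coding genes within 5 Mb. FSCN3, the nearest on the 5′ side, was at 0.191 CPM per kb. LRRC4, which lies inside SND1 on the other strand, was at 0.270. All 10 neighbors together held 306 CPM, against 1813 CPM for SND1.

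FAF1 was 10.6 times its median neighbor (10.1 to 11.1 over the libraries), but 2 neighbors exceeded it. This ratio depended on the neighbors taken, and was 46.5 with 3 on each side, 5.36 with 10 and 3.27 within 5 Mb. CDKN2C, the CDK inhibitor gene that starts 0.477 kb from the FAF1 start on the other strand, had 3.98 CPM per kb. RNF11, a ubiquitin ligase gene of 37.2 kb, had 2.34 CPM per kb, a value that overlapped that of FAF1 over the libraries. The nearest gene past the 3′ end, DMRTA2, had 0.0554 CPM per kb, and ELAVL4, the neuronal RNA-binding protein gene, was lowest at 0.00420. In counts not divided by length the order was the other way round, with 55.2 CPM for CDKN2C and 1181 CPM for FAF1.

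FNDC3B was 17.7 times its median neighbor (14.6 to 21.7 over the libraries). With 3 neighbors on each side it was 7.53 times, with 10 it was 4.80 times and within 5 Mb 8.47 times the median, so the order of the 6 genes by this ratio also turned with the neighbors taken. Its neighbors ran from 0.00311 CPM per kb for SPATA16, a spermatogenesis gene, to 2.37 for ECT2, a gene of cytokinesis. The nearest on either side, TMEM212 and TNFSF10, were at 0.0155 and 0.0297 CPM per kb. FNDC3B, at 3.01 CPM per kb, was 194 and 102 times these values.

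TRIO was 4.24 times its median neighbor (3.70 to 4.54 over the libraries), against 1.89 times with 3 neighbors on each side and 2.36 times within 5 Mb. OTULIN, a deubiquitinase gene of 35.2 kb, exceeded it at 5.20 CPM per kb, and OTULINL, the nearest gene downstream, was at 1.73. On the upstream side DNAH5, an axonemal dynein gene, was at 0.0334, and MARCHF11 was the lowest neighbor at 0.00405 CPM per kb. None of the 5 neighbors of at least 100 kb exceeded TRIO.

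TLE4 had a median neighbor at 2.55 CPM per kb and was 2.59 times that (2.31 to 2.88 over the libraries), or 4.47 times the median within 5 Mb. PSAT1, a serine synthesis gene and its nearest upstream neighbor, had 8.07 CPM per kb, and RASEF had 6.69, both against 6.58 for TLE4. GNA14 was the lowest at 0.0165, and TLE1, of the same corepressor family and the nearest neighbor downstream, had 2.51 CPM per kb. The median over all 26 tested protein-coding genes with a midpoint within 5 Mb was 1.47 CPM per kb, above the coding median. The same window medians were 0.356 around FNDC3B, 0.407 around SND1, 0.690 around FAF1, 0.694 around KANSL1 and 1.15 around TRIO.

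KANSL1 was 16.0 times its median neighbor (14.6 to 17.8 over the libraries), and all 10 neighbors were lower. It was 37.1 times with 3 neighbors on each side and 7.41 times within 5 Mb. MAPT, the tau gene, ends 1.58 kb from the end of KANSL1 on the other strand and had 0.0661 CPM per kb. LRRC37A, the nearest on the other side, had 0.0598, MAP3K14 was the highest at 1.22 and the readthrough locus LINC02210-CRHR1 the lowest at 0.0245. LRRC37A and LRRC37A2 are near-identical copies, and their counts are uncertain because of reads that fit several places.

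**Figure D3:**
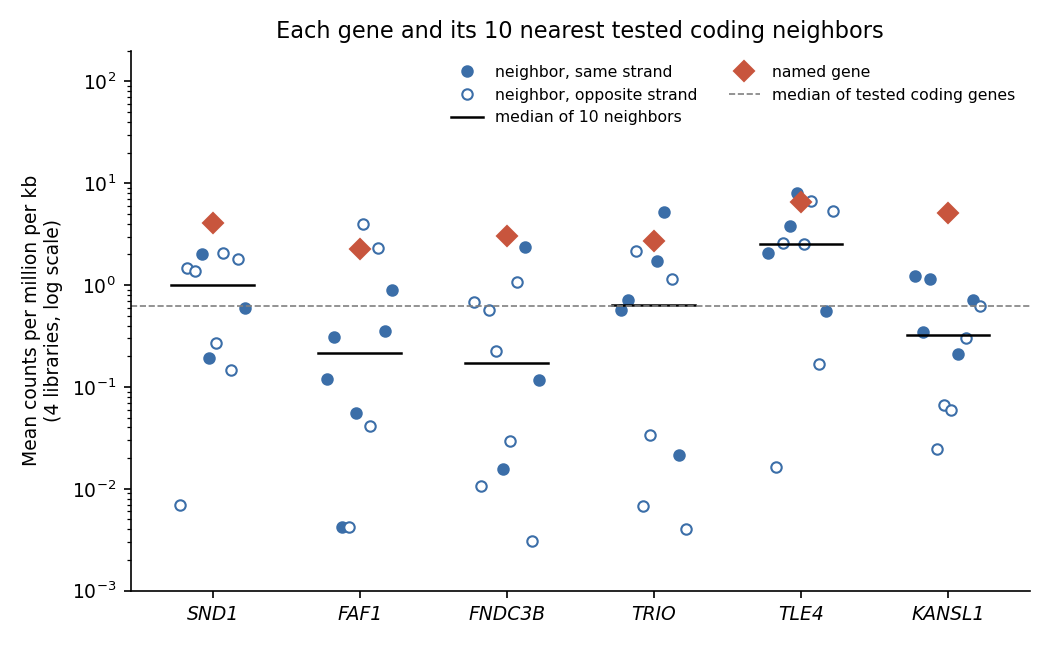
Mean normalized CPM per kb over the 4 libraries (vertical, log scale) of each gene (red diamond) and its 10 nearest tested protein-coding neighbors in order along the chromosome (blue circles, filled on the same strand and open on the other), with the neighbors' median (black line) and the median of tested protein-coding genes (dashed, 0.629). Neighbors above the diamond are seen at FAF1 (2), TRIO (1) and TLE4 (2) and at none of SND1, FNDC3B and KANSL1.

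Of genes that lie wholly inside the 6, there are 15 in the table. The 4 on the same strand as their host were listed at 0 in all libraries, among them SND1-IT1 and MIR593 inside SND1. Any read from these 4 genes would also lie in the counted span of the host, on the same strand. How such reads were counted is not known, so the value of 0 does not give the level of these 4 genes. The 11 on the other strand summed to 823 counts over 24.5 kb, or 33.6 counts per kb, against 526 counts per kb for the 6 host genes. Most of these counts lay in KANSL1-AS1 and LRRC4, and the other 9 had at most 8 counts each over the 4 libraries. KANSL1-AS1, an antisense lncRNA near the 5′ part of KANSL1, had 156 and 188 counts in WT and 139 and 115 counts in T4A. It had 1.247 CPM per kb, and KANSL1 was 4.13 times that. LRRC4 had 47 and 66 counts in WT and 40 and 54 counts in T4A.

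T4A was then compared with WT, which the choice of genes did not use. None of the 6 genes passed the threshold of an adjusted p below 0.05 and a fold change above 1.5, and across all tested genes 0.00429% passed. That background count, 1 gene, ranged from 0 without WT replicate 2 to 2500 without T4A replicate 2. None of the 6 had an unadjusted p below 0.05 either, against 15.5% of all tested genes. Groups did not overlap for 1 of the 6 genes, TRIO, against 49.5% of tested genes, with both T4A libraries lower in 24.7% and both higher in 24.8%.

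The differences were small, and each 95% interval included 0. By the quasi-likelihood test of edgeR, with Benjamini-Hochberg adjustment over all tested genes, the log2 fold change of T4A over WT was 0.06 for SND1 (SE 0.16, 95% interval -0.29 to 0.42, adjusted p = 0.867). For FAF1 it was -0.13 (SE 0.14, interval -0.45 to 0.20, adjusted p = 0.689 by the same edgeR test), and for FNDC3B 0.06 (SE 0.14, interval -0.26 to 0.39, adjusted p = 0.847 by edgeR). TRIO had -0.13 (SE 0.13, interval -0.43 to 0.17) with an edgeR adjusted p of 0.651, the lowest of the 6. TLE4 had 0.08 (SE 0.14, interval -0.23 to 0.39, edgeR adjusted p = 0.794) and KANSL1 -0.07 (SE 0.13, interval -0.37 to 0.24, edgeR adjusted p = 0.831). All 6 intervals lay within 0.58 of 0 on the log2 scale, which is a 1.5-fold change in either direction. Changes inside these intervals were not detectable with 2 libraries per group.

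Leaving out T4A replicate 1 turned the log2 fold changes of SND1, FNDC3B and TLE4 to -0.02, -0.05 and -0.01. The sign of KANSL1 also turned, to 0.03, when the scaling was taken from protein-coding genes of at least 100 kb. FAF1 and TRIO stayed below 0 under each alternative run. Over the tested protein-coding genes the median log2 fold change was -0.04, and it was -0.09 in those of at least 100 kb and -0.10 in those of at least 200 kb.

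**Figure D4:**
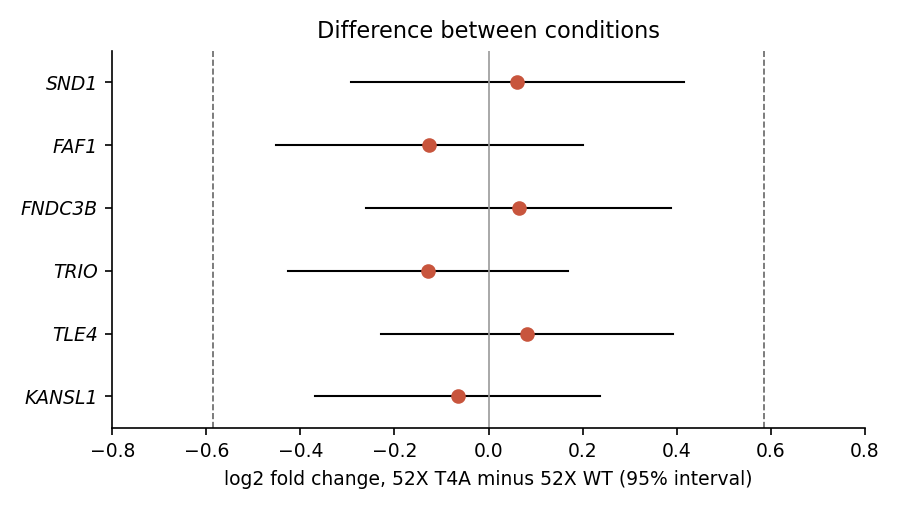
Log2 fold change of 52X T4A over 52X WT for each gene (horizontal axis; red points) with its 95% interval from edgeR's quasi-likelihood fit (black lines, n = 2 libraries per group), a grey line at 0 and dashed lines at a 1.5-fold change. Every interval crosses 0 and lies between the dashed lines.

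Ratios between the 6 genes within a library do not depend on how libraries are scaled. SND1 over FNDC3B was 1.69 and 1.64 in WT and 1.63 and 1.70 in T4A, and SND1 over TLE4 was 1.80 and 1.77 in WT and 1.75 and 1.78 in T4A. These ratios overlapped between the groups. SND1 over KANSL1 was 1.73 and 1.72 in WT and 1.88 and 1.88 in T4A, and TLE4 over KANSL1 was 0.958 and 0.971 in WT and 1.08 and 1.06 in T4A. Of the 15 pairs, 11 had ratios that did not overlap between the groups (73.3%). Of the 4950 pairs among the 100 most counted protein-coding genes, 67.2% did not overlap, so the share among the 6 genes was near the background. No test was made of these ratios.

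Other genes of the same families and pathways were read from the same fit. All 31 of 31 listed genes were tested, and 0 passed the threshold in either direction. At an unadjusted p below 0.05 there were 0 higher and 2 lower, which is no excess over the 15.5% of all tested genes. Those 2 were FNDC3A, the paralog of FNDC3B, with a log2 fold change of -0.26, and KANSL3, of the NSL complex, with -0.27. Their adjusted p in the quasi-likelihood test of edgeR, by Benjamini-Hochberg over all tested genes, was 0.305 and 0.299. The median log2 fold change over the 31 genes was -0.08, against -0.04 over the tested protein-coding genes.

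Per kb, the relatives of the 6 genes spanned a wide range. FNDC3A had 1.505 CPM per kb, below FNDC3B at 3.01. TRIO, at 2.72, was far above its paralog KALRN, a gene of 693 kb with 0.0979 CPM per kb, while the small GTPase genes RAC1, RHOA and RHOG had 4.78, 2.51 and 1.42. In the Groucho family TLE4 was the highest at 6.58, followed by TLE3 at 4.20, TLE1 at 2.51, TLE5 at 0.864, TLE6 at 0.0460 and TLE2 at 0.0365 CPM per kb. In the NSL complex KANSL2 was above KANSL1, at 7.05 against 5.15 CPM per kb, and OGT, HCFC1 and WDR5 were close to each other at 4.65, 4.53 and 4.53. KAT8, the acetyltransferase, had the lowest level of the complex, at 0.850 CPM per kb.

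FAF1, at 2.26 CPM per kb, was below 7 of its 8 listed relatives and partners and above UBXN7, at 2.04. FAF2, its paralog, had 2.93, VCP 3.18, and the VCP cofactors NPLOC4 and UFD1 had 2.54 and 2.49 CPM per kb. FAS and FADD, of the death receptor pathway, had 2.37 and 7.15. Yet FAF1 had 1181 CPM against 233 CPM for NPLOC4, the highest of these 8 genes, and it was 5.71 times as long. SND1, at 4.12 CPM per kb, was above its partners CREBBP, MTDH, PIM1, AGO2 and STAT6, which had 3.25, 2.69, 2.42, 2.31 and 0.432 CPM per kb.

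For 5 of the 6 genes, the long gene nearest in CPM per kb over the 4 libraries is given, by the root mean square difference in log2 CPM per kb among 3482 tested protein-coding genes of at least 100 kb. It was LRPPRC for SND1 (0.0331), WDR33 for FAF1 (0.0219), UBAP2 for FNDC3B (0.0238), HOMER1 for TRIO (0.0486) and FAM120A for KANSL1 (0.0533). Their lengths ran from 110 to 141 kb. At nearly the same level per length, LRPPRC had 448 CPM against 1813 CPM for SND1, and WDR33 had 250 CPM against 1181 CPM for FAF1.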

How the data were processed

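Strand-specific TT-seq libraries were made by the submitters from 4-thiouridine-labeled RNA. Their processing notes name FastQC, cutadapt 4.6, STAR 2.7.11b, Picard, deepTools 3.5.6 and GRCh38, and the table's layout is that of featureCounts; the counting options are not given in the sources used here. The authors deposited 1 table of raw counts per gene for 60708 genes. Genes were named by stable identifier from GENCODE (58700 matched), and 99.969% of 19154 protein-coding genes overlapped their RefSeq GRCh38.p14 position. Samples were grouped by title. Counts were tested with edgeR 4.0.16 in R 4.3.3 (TMM, default filter on low counts, quasi-likelihood test, Benjamini-Hochberg adjustment over 23321 genes); standard errors came from the F statistic. The test was also run on simulated data that varied less between libraries than these data. That run does not show how the test performs here. CPM per kb is normalized CPM divided by listed length.

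The 6 genes, the neighbor rule, the family and marker lists and the tests were chosen with earlier results of these data known. Named genes are the 6, their nearest, highest and lowest neighbors, genes inside them with at least 100 counts per library, non-member protein-coding genes among the 20 most counted, the most similar gene, POLR2A and the lists. SND1-IT1, MIR593, MT-RNR1, MT-RNR2, RNF11, RASEF and LRRC37A2 were named after their values were seen. PECAM1, on the marker list, was not analysed, and some genes that the rule names are not reported here. Alternatives were DESeq2 1.42.0, other scalings, filters, lengths and neighbor sets, the replicate block and leaving out each library. The depths, from 33188536 to 45605027 counts, gave each of the 6 genes at least 32054 counts.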

Additional observations from a re-analysis of the deposited data

How the results depend on the processing

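The 6 genes stayed short of the threshold under each alternative run. The count of all genes past it moved from 1 to 65 without a filter on low counts, 106 with DESeq2 and 0 to 2500 on leaving out 1 library (3 without WT replicate 1, 0 without WT replicate 2, 195 without T4A replicate 1 and 2500 without T4A replicate 2); in each such fit the lone library was assumed to vary like the other group, and the cause was not tested. A replicate block in the fit gave 433 genes, 177 higher and 256 lower, and 0 of the 6; the labels do not pair the numbers, and same-numbered samples deviated together at r = 0.00498. Of 72 log2 fold changes under alternatives, 66 kept their direction. Those of SND1, FNDC3B and TLE4 reversed without T4A replicate 1, with ranges on leaving out 1 library of -0.0196 to 0.129, -0.0507 to 0.161 and -0.0128 to 0.161. That of KANSL1 reversed without T4A replicate 2 (range -0.145 to 0.00157), with upper quartile scaling (0.0128) and with scaling on coding genes of at least 100 kb (0.0299).

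CPM per kb moved by more than its SD only for TRIO, to 2.88 with the RefSeq length (chosen after seeing the data, as was like length below). Percentiles of SND1, FAF1, FNDC3B, TRIO, TLE4 and KANSL1, in this order, were 93.6, 85.6, 90.1, 88.8, 96.6 and 95.3 among all tested genes, 99.6, 95.7, 98.3, 97.7, 99.9 and 99.8 among coding genes of at least 100 kb, 99.9, 98.7, 99.8, 99.7, 100 and 100 among those of at least 200 kb, which TLE4 and KANSL1 do not reach in length, and 100, 99.6, 99.8, 99.5, 99.8 and 100 among genes of like length. Ratios to the median neighbor, in the same order, were 4.97, 46.5, 7.53, 1.89, 2.05 and 37.1 with 3 neighbors on each side, 6.97, 5.36, 4.80, 2.92, 3.43 and 20.6 with 10, and 10.1, 3.27, 8.47, 2.36, 4.47 and 7.41 within 5 Mb; SND1 had 2.97 with exclusive length (bases in no other listed gene of the same strand). All stayed above 1. With 2 libraries per group, the spread limits these comparisons more than depth does.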
